A study of Mus musculus with 10 samples.

Results

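The neuroblast and neuronal genes described here are 39 genes that newborn or mature neurons express, taken from the 48795 genes of a count table for mouse neural stem cell cultures. They were chosen by name for what their proteins do, with earlier results of these data known. Of them, 24 are genes of neuroblasts and immature neurons (called early here) and 15 are genes of mature neurons and synapses (called mature). Neurons are still made in the adult subependymal zone (SEZ), which lines the lateral ventricle of the mouse brain; most of them use GABA, and their immature form is the neuroblast. Migrating neuroblasts make proteins that order microtubules and growth cones, such as doublecortin, and carry polysialic acid on the adhesion protein NCAM. Neurofilaments, enzymes for GABA and proteins of synaptic vesicle release follow as neurons mature.

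RNA from 10 bulk cultures was sequenced, each library being a biological replicate by the study's design. The cells were neural stem and progenitor cells isolated from the SEZ of mice of 10 weeks and grown as floating neurospheres. WT cells are wild type and p27KO cells come from mice with mutant alleles of Cdkn1b, which encodes the cyclin-dependent kinase inhibitor p27; the study's methods give a C57BL/6J background. Proliferation (PRO) libraries, 3 of WT and 2 of p27KO, are neurospheres after 3 days in vitro (DIV) with 20 ng/ml EGF and 10 ng/ml FGF by the labels, while the study's text also gives a longer growth of the neurospheres. Differentiation (DIFF) libraries, again 3 of WT and 2 of p27KO, are cells plated on Matrigel for 2 DIV with FGF and then kept for 1 DIV (24 h) with no mitogen and 2% fetal bovine serum. A PRO and a DIFF library therefore differ in attachment, substrate, mitogens, serum and time together, and these cannot be told apart.

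Total counts were 19190068, 25069860 and 21687332 in WT PRO replicates 1 to 3, and 19649261, 24128072 and 25291674 in WT DIFF replicates 1 to 3. They were 24205236 and 20332078 in p27KO PRO replicates 1 and 2, and 25223929 and 22237950 in p27KO DIFF replicates 1 and 2. Levels are given in CPM (the gene's count over the library's total, times 1000000), in the order of the replicate numbers. At these depths 3 counts, the limit that a count of 0 allows, correspond to 0.119 to 0.156 CPM, a limit that covers counting error only.

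The targeted gene, Cdkn1b, was read in every library, with 103, 105 and 112 CPM in the WT PRO libraries, 207, 205 and 209 CPM in WT DIFF, 114 and 90.7 CPM in p27KO PRO and 140.2 and 137 CPM in p27KO DIFF. The p27KO PRO libraries lay on either side of the WT PRO range, 1 above and 1 below it, while both p27KO DIFF libraries lay under the 3 WT DIFF libraries. The genotype difference of Cdkn1b was -0.56 on the log2 scale at DIFF (SE 0.0938, adjusted p = 0.012 by edgeR with Benjamini-Hochberg) and -0.03 at PRO (SE 0.0931, adjusted p = 1). The SE (standard error), here and below, is an approximation worked back from the edgeR test statistic. Which part of the gene the reads cover was not analysed here. The free-text description of the p27KO samples speaks of WT cells, whereas their titles and genotype field say p27KO, so they are called the libraries labelled p27KO, or p27KO for short. Xist, the RNA of the inactive X chromosome, lay at 1.16 to 2.57 CPM in the 6 WT libraries and at 2258 to 3595 CPM in the 4 libraries labelled p27KO. The sum of 4 Y-linked genes lay at 189 to 533 CPM in WT and at 0.148 to 0.585 CPM in p27KO. WT libraries thus have a male and p27KO libraries a female pattern, and genotype and sex cannot be told apart in any comparison between them. Dcx, L1cam and Syn1 are X-linked members.

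The members' summed level lay between 4184 and 5223 CPM, and Map2 was the most abundant member by CPM in all 10 libraries. Between 33 and 35 of the 39 members reached 1 CPM in a library. Levels of different genes are comparable only per length, here as CPM per kb of exon (the union of the gene's annotated exons). On that scale the WT PRO group mean was highest for the early genes Tubb2b at 479 CPM per kb, Gap43 at 269 and Cd24a at 103. The mature gene Map2 followed at 79.97 CPM per kb. In WT DIFF, Tubb2b led at 251 CPM per kb. Map2 at 93.1, the early gene Dpysl3 at 81.3 and Cd24a at 67.8 CPM per kb followed. These lay within their spread over libraries (SD 8.33, 9.94 and 23.4 CPM per kb), so their order is not settled. Early and mature genes were thus mixed in this order, and cultures with mitogens already held RNA of several members at high levels. The label is a list of genes and does not show that the cells are neuroblasts or neurons.

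**Figure D1:**
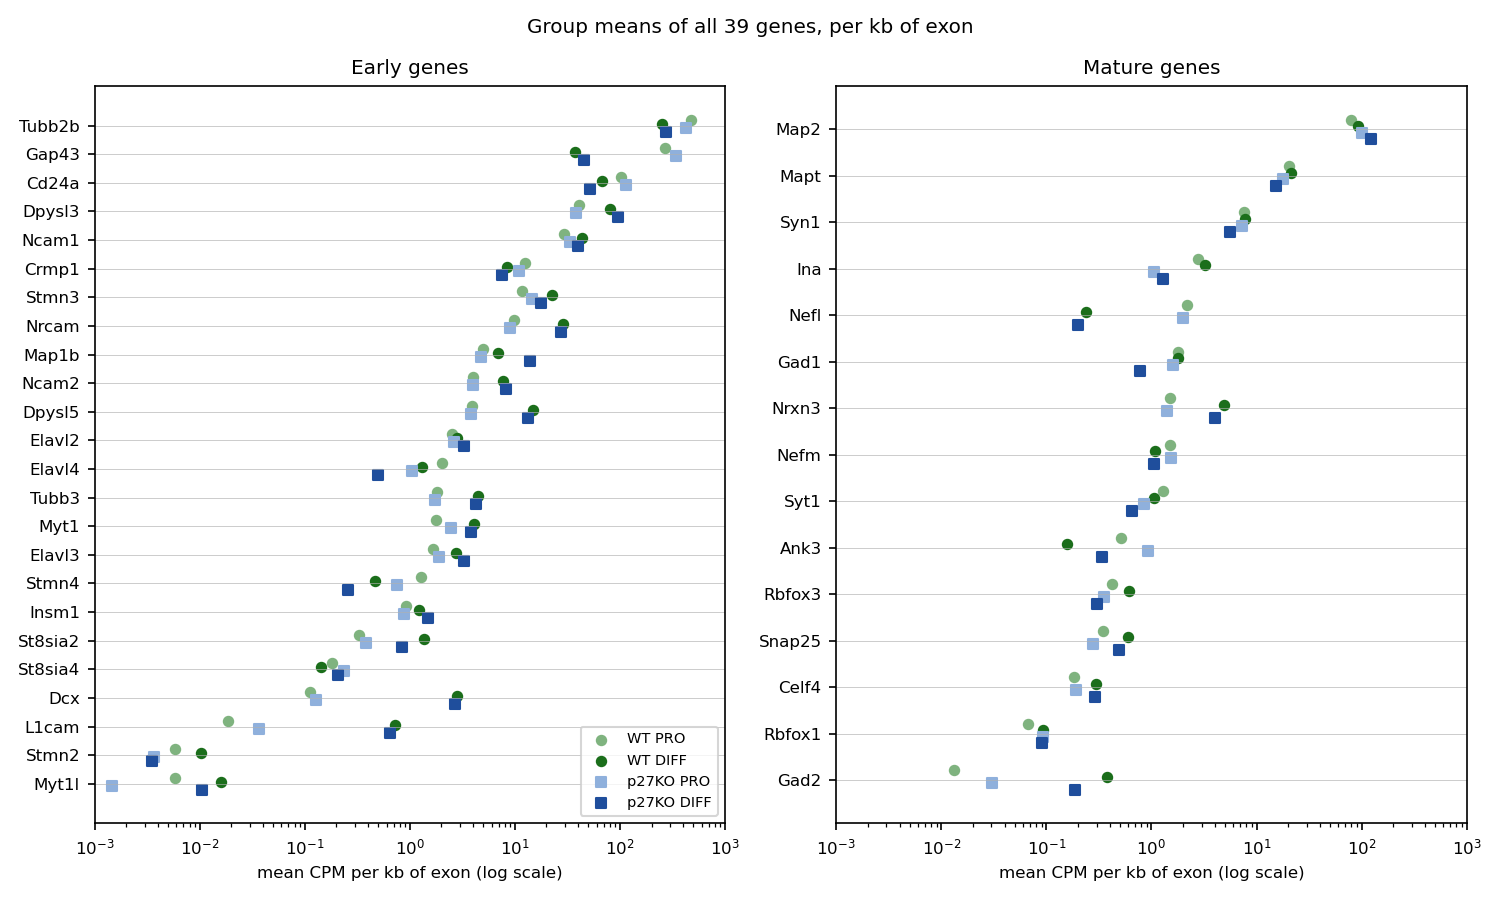
Group mean level of all 39 members in CPM per kb of exon (log axis), 1 symbol for each of the 4 groups, genes arranged by stage. Tubb2b leads in WT PRO at 479 CPM per kb, and Stmn2 and Myt1l lie lowest among the early genes.

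At the other end, Myt1l, a neuronal transcription factor of the Myt family, and Stmn2, a microtubule regulator of growing axons, had fewer than 10 counts in every library and count as near zero. Myt1l had 2, 0 and 3 counts in the WT PRO libraries, 6, 2 and 7 in WT DIFF, 1 and 0 in p27KO PRO and 4 and 3 in p27KO DIFF. Stmn2 had 1, 0 and 1 counts in the WT PRO libraries, 1, 1 and 2 in WT DIFF, 1 and 0 in p27KO PRO and 1 and 0 in p27KO DIFF. Both lie at or close to the limit that a count of 0 allows, so a stage or genotype difference in them was not detectable at this depth. A further 5 members did not pass the filter, which discards genes under 1 CPM in at least 4 of the 10 libraries. They are Rbfox1, Stmn4, L1cam, Nefl and Gad2. The filter also discards a gene that is under 1 CPM in all libraries of a stage, whatever its level in the other stage. The other 32 members, 20 early and 12 mature, were tested with 12859 genes in all.

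The question of the stage comparison in WT is how the genes change when mitogens are withdrawn and cells begin to differentiate. Changes are log2 fold changes of DIFF over PRO, where 1 is a doubling. A gene is called UP or DOWN when the edgeR p-value, adjusted by Benjamini-Hochberg over all 12859 genes, is under 0.05. In WT, 11 of the 32 tested members were UP (34.4%), beside 33.5% of all tested genes, a share near the background. A further 5 members were DOWN (15.6%), beside 33.9% of all tested genes. The median log2 fold change of the 32 was 0.44, with all tested genes at -0.00186. By kind of gene, 10 of 20 early genes were UP and 4 DOWN with a median of 0.63, whereas 1 of 12 mature genes was UP, 1 was DOWN and the median was 0.13. That mature median was 0.043 without WT DIFF replicate 1, 0.20 without WT PRO replicate 1 and 0.28 without WT PRO replicate 3. In a list of 22 further synaptic and mature neuron genes, 6 of 12 tested were UP and 2 DOWN, with a median of 0.59. The contrast between early and mature genes thus holds for these members only, not for mature neuron genes in general. In bulk RNA, fewer cells of a type and less RNA per cell cannot be told apart, here and in all that follows.

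In p27KO the same stage comparison asks whether the change takes place with mutant Cdkn1b. There 9 of 32 tested members were UP (28.1%), beside 27.5% of all tested genes, again near the background, and 5 were DOWN (15.6%), beside 30.2%; without p27KO PRO replicate 2 the count DOWN was 3. Of the 20 early genes 8 were UP and 4 DOWN, with a median of 0.68; of the 12 mature genes 1 was UP and 1 DOWN, with a median of -0.25. The median for mature genes rests on single libraries: it was -0.40 without p27KO DIFF replicate 2, -0.48 without p27KO PRO replicate 1 and 0.11 without p27KO PRO replicate 2. The early median was 0.43 without p27KO DIFF replicate 2. The WT and p27KO stage changes share no library. UP in both were 7 members (Dcx, Tubb3, Dpysl3, Dpysl5, Ncam2, Nrcam and Nrxn3) and DOWN in both were 5 (Gap43, Tubb2b, Crmp1, Cd24a and Ank3). UP in WT alone were 4 (Myt1, Stmn3, Ncam1 and St8sia2), UP in p27KO alone were 2 (Insm1 and Map1b), and 14 were called in neither. As shares of the 32, UP in both were 21.9% and DOWN in both 15.6%, beside 26.4% and 28.5% of all tested genes. UP in WT alone were 12.5%, UP in p27KO alone 6.25% and called in neither 43.8%, beside 7.12%, 1.17% and 29.8% of all tested genes.

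**Figure D2:**
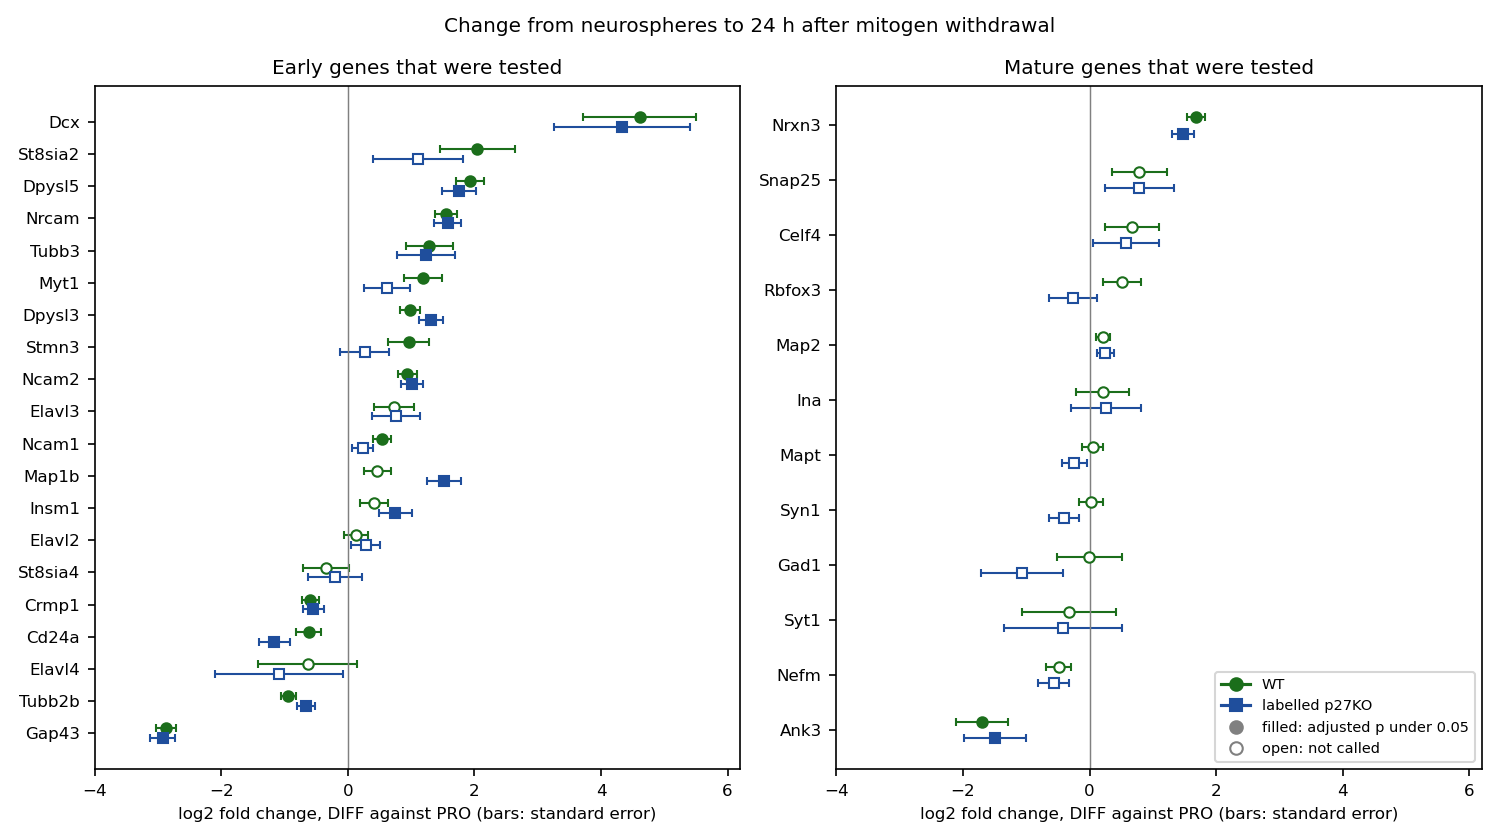
Log2 fold change of DIFF over PRO for the 32 tested members in WT (circles) and p27KO (squares), early and mature genes in separate panels. Bars are approximate standard errors worked back from the edgeR test statistic, and filled symbols are calls at an adjusted p under 0.05. Dcx is farthest to the right at 4.61 in WT, and Gap43 farthest to the left at -2.93 in p27KO.

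Of the 11 tested genes for microtubules and growth cones, 5 were UP and 3 DOWN in each genotype (all tested genes: 33.5% UP and 33.9% DOWN in WT, 27.5% and 30.2% in p27KO). Dcx (ENSMUSG00000031285, chromosome X, 143855842 to 143933311), coordinates here and below being of build GRCm38, encodes doublecortin, which stabilises microtubules in migrating neuroblasts. It had 0.834, 0.279 and 3.18 CPM in the WT PRO libraries, 55.9, 14.5 and 35.1 CPM in WT DIFF, 2.85 and 0.393 CPM in p27KO PRO and 22 and 46.4 CPM in p27KO DIFF. Levels in PRO were low and uneven, all DIFF libraries lay above all PRO libraries in both genotypes, and WT DIFF replicate 2 was the lowest of the DIFF libraries. Dcx rose by 4.61 in WT (SE 0.898, adjusted p = 0.00181 by edgeR with Benjamini-Hochberg) and 4.33 in p27KO (SE 1.07, adjusted p = 0.00823) on the log2 scale, the largest rise among tested members in both genotypes. In WT the value was 6.02 without WT PRO replicate 3 and 4.08 without WT PRO replicate 2, and in p27KO 6.37 without p27KO PRO replicate 1, 3.57 without p27KO PRO replicate 2 and 3.71 without p27KO DIFF replicate 2, all past the threshold, with adjusted p from 1.69e-05 to 0.0155 in WT and from 0.00107 to 0.0495 in p27KO over the edgeR and DESeq2 alternatives. The PRO counts it rises from are few: the lowest level, in WT PRO replicate 2, was 0.279 CPM.

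Tubb3 (ENSMUSG00000062380, chromosome 8, 123411424 to 123422015), the neuronal class of beta-tubulin, had 4.17, 2.47 and 3.46 CPM in the WT PRO libraries, 11.9, 6.01 and 7.0 CPM in WT DIFF, 4.26 and 2.26 CPM in p27KO PRO and 5.11 and 10.7 CPM in p27KO DIFF. Its levels stayed low in both stages, with all DIFF libraries above all PRO libraries in both genotypes. It rose by 1.29 in WT (SE 0.375, adjusted p = 0.0122 by edgeR with Benjamini-Hochberg) and 1.24 in p27KO (SE 0.458, adjusted p = 0.0411) on the log2 scale. The p27KO call was lost without p27KO DIFF replicate 2 (0.63, adjusted p = 0.322 by edgeR) and without p27KO PRO replicate 2 (0.88, adjusted p = 0.214 by edgeR). It was also lost without WT DIFF replicate 3 (1.24), without WT PRO replicate 3 (1.24), without a filter (1.18) and with a replicate block within genotype, which adds a term for each replicate number to the fit (1.19), and its adjusted p ranged from 0.00133 to 0.322 over its alternatives in edgeR and DESeq2. Stmn3, a stathmin that binds tubulin, had 18.7, 10.5 and 10.3 CPM in the WT PRO libraries, 36.8, 19.4 and 21.5 CPM in WT DIFF, 21.2 and 12 CPM in p27KO PRO and 18.4 and 22.2 CPM in p27KO DIFF. The PRO and DIFF libraries were apart in WT and overlapped in p27KO, where PRO replicate 1 lay above DIFF replicate 1. Stmn3 rose by 0.96 (SE 0.323, adjusted p = 0.0246 by edgeR with Benjamini-Hochberg) in WT and its value in p27KO was 0.26 (SE 0.391, adjusted p = 0.586), with an interaction (p27KO change minus WT change) of -0.70 (adjusted p = 1). The WT call was lost without WT DIFF replicate 1 (0.66), without WT PRO replicate 2 or 3 (0.82 for each) and without a filter (0.88), with an adjusted p from 0.000161 to 0.122 over its edgeR and DESeq2 alternatives. In p27KO its value was -0.068 without p27KO PRO replicate 2 and 0.71 without p27KO PRO replicate 1.

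Dpysl5 and Dpysl3 encode collapsin response mediator proteins, which link guidance signals to the cytoskeleton. Dpysl5 (ENSMUSG00000029168, chromosome 5, 30711564 to 30799375) had 30.9, 31.3 and 23.8 CPM in the WT PRO libraries, 155, 94.3 and 82.2 CPM in WT DIFF, 28.1 and 28.4 CPM in p27KO PRO and 92.1 and 103 CPM in p27KO DIFF. It rose by 1.93 in WT (SE 0.221, adjusted p = 4.65e-05 by edgeR with Benjamini-Hochberg) and 1.76 in p27KO (SE 0.269, adjusted p = 0.000463) on the log2 scale, from PRO levels that differed little between libraries to DIFF levels above all of them. Dpysl3 had 198, 294 and 315 CPM in the WT PRO libraries, 563, 463 and 587 CPM in WT DIFF, 246 and 257 CPM in p27KO PRO and 604 and 668 CPM in p27KO DIFF. It too was higher in all DIFF than in all PRO libraries of its genotype, and rose by 0.99 in WT (SE 0.159, adjusted p = 0.000358 by edgeR with Benjamini-Hochberg) and 1.31 in p27KO (SE 0.196, adjusted p = 0.00034) on the log2 scale.

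Gap43, Tubb2b and Crmp1, all counted as early genes, went the other way. Gap43 (ENSMUSG00000047261, chromosome 16, 42248442 to 42340651), a membrane protein of growth cones, had 491, 367 and 372 CPM in the WT PRO libraries, 53.1, 48.7 and 67.7 CPM in WT DIFF, 575 and 461 CPM in p27KO PRO and 66.4 and 72.1 CPM in p27KO DIFF. Every DIFF library lay far below every PRO library, and its log2 fold change was -2.87 in WT (SE 0.158, adjusted p = 3.45e-07 by edgeR with Benjamini-Hochberg) and -2.93 in p27KO (SE 0.193, adjusted p = 3.26e-06), the largest fall among tested members in both genotypes. Tubb2b (ENSMUSG00000045136, chromosome 13, 34126748 to 34130466), a beta-tubulin of developing neurons, had 1190.0, 1024 and 1082 CPM in the WT PRO libraries, 562, 517 and 651 CPM in WT DIFF, 1111 and 854 CPM in p27KO PRO and 593 and 672 CPM in p27KO DIFF. Its log2 fold change was -0.94 in WT (SE 0.118, adjusted p = 6.77e-05 by edgeR with Benjamini-Hochberg) and -0.66 in p27KO (SE 0.144, adjusted p = 0.00323), with DIFF below PRO in every library of both genotypes. Its near-identical paralogue Tubb2a makes the split of reads between them uncertain, and Tubb2a was also DOWN in WT, with 422 ± 87.4 CPM in PRO and 95.3 ± 8.24 in DIFF (mean ± SD, n = 3). Crmp1, a relative of the Dpysl genes, had 104, 79.1 and 82.3 CPM in the WT PRO libraries, 66.4, 52.4 and 59.1 CPM in WT DIFF, 75.7 and 77.4 CPM in p27KO PRO and 46.9 and 59.9 CPM in p27KO DIFF. Its log2 fold change was -0.59 in WT (SE 0.133, adjusted p = 0.00293 by edgeR with Benjamini-Hochberg) and -0.55 in p27KO (SE 0.163, adjusted p = 0.0164). The p27KO call of Crmp1 was lost without p27KO DIFF replicate 1 (-0.39) and without p27KO PRO replicate 2 (-0.51), and the adjusted p ranged from 0.00254 to 0.131 over its edgeR and DESeq2 alternatives.

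Map1b (ENSMUSG00000052727, chromosome 13, 99421446 to 99516540), an early microtubule-associated protein of growing axons, had 99.4, 68.5 and 69.5 CPM in the WT PRO libraries, 77.8, 138 and 112 CPM in WT DIFF, 73.3 and 78.1 CPM in p27KO PRO and 233 and 207 CPM in p27KO DIFF. In WT the stages overlapped, since DIFF replicate 1 lay below PRO replicate 1, whereas in p27KO both DIFF libraries lay above all other libraries of the study. It rose by 1.51 (SE 0.269, adjusted p = 0.00116 by edgeR with Benjamini-Hochberg) in p27KO, and its value in WT was 0.46 (SE 0.216, adjusted p = 0.0843). The interaction was 1.05 (SE 0.342, unadjusted p = 0.0131, adjusted p = 0.636 by edgeR with Benjamini-Hochberg) and is not called. The WT value passed the threshold in DESeq2 (0.47), without WT DIFF replicate 1 (0.68) and without WT PRO replicate 1 (0.66), and was 0.24 without WT DIFF replicate 2, with an adjusted p from 0.00759 to 0.315 over its edgeR and DESeq2 alternatives. Map2 and Mapt, which encode the dendritic and axonal microtubule proteins MAP2 and tau and count as mature, were uncalled in both genotypes as reported. The WT change of Map2, 0.21, passed the threshold without WT DIFF replicate 1 (0.30) and without WT PRO replicate 3 (0.30), with an adjusted p from 0.0415 to 0.459 over its edgeR and DESeq2 alternatives. Map2 lay at 1218 to 2067 CPM and Mapt at 106 to 194 CPM over the 10 libraries. Stmn4, a further stathmin that did not pass the filter, had 87, 34 and 30 counts in the WT PRO libraries, 32, 20 and 5 in WT DIFF, 34 and 30 in p27KO PRO and 7 and 16 in p27KO DIFF. The highest count was in WT PRO replicate 1 and the lowest in WT DIFF replicate 3, and PRO and DIFF overlapped in WT.

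**Figure D3:**
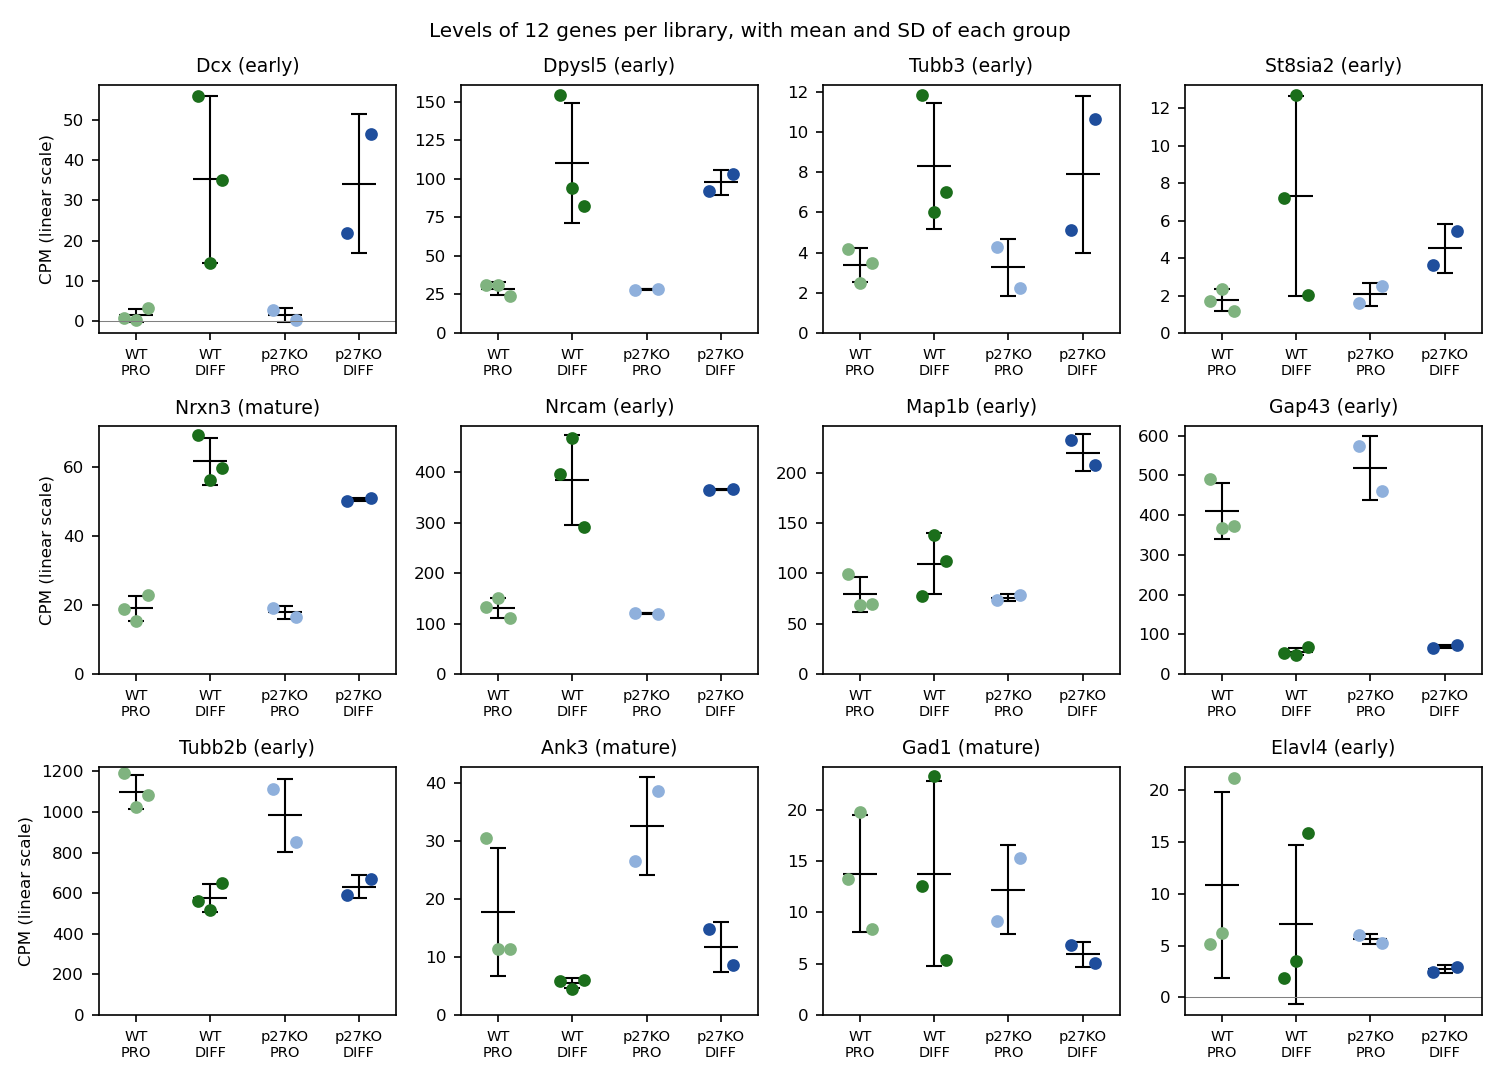
Level in CPM (linear axes) of 12 members in each library, with points for libraries and bars for the group mean ± SD (n = 3 in WT, n = 2 in p27KO). Dcx lies at 14.5 to 55.9 CPM in WT DIFF, above all PRO libraries, while Elavl4 stands at 21.2 CPM in WT PRO replicate 3.

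Of the 8 tested genes for the cell surface, adhesion and polysialic acid, 5 were UP and 2 DOWN in WT, and 3 were UP and 2 DOWN in p27KO, beside 33.5% and 33.9% of all tested genes in WT and 27.5% and 30.2% in p27KO. Nrcam (ENSMUSG00000020598, chromosome 12, 44328885 to 44601964), an adhesion molecule of the L1 family, had 132, 151 and 111 CPM in the WT PRO libraries, 396, 468 and 291 CPM in WT DIFF, 121 and 119 CPM in p27KO PRO and 365 and 366 CPM in p27KO DIFF. All DIFF libraries stood above all PRO libraries, and it rose by 1.55 in WT (SE 0.174, adjusted p = 3.59e-05 by edgeR with Benjamini-Hochberg) and 1.58 in p27KO (SE 0.214, adjusted p = 0.000198) on the log2 scale. Nrxn3 (ENSMUSG00000066392, chromosome 12, 88722876 to 90334935), a presynaptic neurexin that binds postsynaptic partners and the single mature gene that was UP, had 18.9, 15.4 and 22.8 CPM in the WT PRO libraries, 69.3, 56.2 and 59.6 CPM in WT DIFF, 19.2 and 16.6 CPM in p27KO PRO and 50.3 and 51 CPM in p27KO DIFF. PRO and DIFF libraries were apart in both genotypes, and it rose by 1.69 in WT (SE 0.142, adjusted p = 4.79e-06 by edgeR with Benjamini-Hochberg) and 1.48 in p27KO (SE 0.174, adjusted p = 7.95e-05) on the log2 scale. Ank3, which encodes ankyrin-G of the axon initial segment and counts as mature, had 30.5, 11.4 and 11.3 CPM in the WT PRO libraries, 5.90, 4.56 and 6.01 CPM in WT DIFF, 26.6 and 38.5 CPM in p27KO PRO and 14.8 and 8.68 CPM in p27KO DIFF. WT PRO replicate 1 was the highest WT library, and all DIFF libraries lay below all PRO libraries of their genotype. Its log2 fold change was -1.70 in WT (SE 0.416, adjusted p = 0.00544 by edgeR with Benjamini-Hochberg) and -1.49 in p27KO (SE 0.489, adjusted p = 0.0267). The WT value was -1.06 without WT PRO replicate 1. The p27KO call was lost without p27KO DIFF replicate 2 (-1.15), without p27KO PRO replicate 2 (-1.18) and without a filter (-1.56), with an adjusted p from 0.00178 to 0.15 over its edgeR and DESeq2 alternatives.

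Ncam1 and Ncam2 encode neural cell adhesion molecules, and NCAM1 is the main carrier of polysialic acid. Ncam1 had 264, 268 and 238 CPM in the WT PRO libraries, 443, 343 and 339.6 CPM in WT DIFF, 246 and 332 CPM in p27KO PRO and 343 and 349 CPM in p27KO DIFF. Ncam2 had 47.1, 41.1 and 47.1 CPM in the WT PRO libraries, 97.6, 75.4 and 89 CPM in WT DIFF, 54.9 and 36.2 CPM in p27KO PRO and 89.6 and 97.3 CPM in p27KO DIFF. Both were higher in all DIFF than in all PRO libraries of their genotype, though p27KO PRO replicate 2 was close to DIFF for Ncam1. Ncam1 rose by 0.54 (SE 0.137, adjusted p = 0.00592 by edgeR with Benjamini-Hochberg) in WT and its value in p27KO was 0.23 (SE 0.167, adjusted p = 0.256), with an interaction of -0.30 (adjusted p = 1). Without p27KO PRO replicate 2 the p27KO value of Ncam1 was 0.49 and passed the threshold, and without p27KO PRO replicate 1 it was 0.02. Ncam2 rose by 0.94 in WT (SE 0.143, adjusted p = 0.000251 by edgeR with Benjamini-Hochberg) and 1.01 in p27KO (SE 0.176, adjusted p = 0.000857) on the log2 scale.

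St8sia2 and St8sia4 encode the sialyltransferases that add polysialic acid to NCAM. St8sia2 had 1.72, 2.35 and 1.20 CPM in the WT PRO libraries, 7.23, 12.7 and 2.02 CPM in WT DIFF, 1.61 and 2.51 CPM in p27KO PRO and 3.61 and 5.44 CPM in p27KO DIFF. WT DIFF replicate 2 was the highest and WT DIFF replicate 3 lay within the range of WT PRO, so the stages overlapped in WT but not in p27KO. St8sia2 rose by 2.05 (SE 0.593, adjusted p = 0.0126 by edgeR with Benjamini-Hochberg) in WT and its value in p27KO was 1.11 (SE 0.717, adjusted p = 0.213), with an interaction of -0.94 (adjusted p = 1). Without WT DIFF replicate 2 the WT value was 1.35, and without a filter (1.96) its call was lost, with an adjusted p from 0.00036 to 0.0636 over its edgeR and DESeq2 alternatives. In p27KO it passed the threshold under 4 alternatives: without WT DIFF replicate 3 (1.11), with the p27KO libraries fitted alone (1.14), with the replicate block within genotype (1.11) and with a block across all libraries (1.11), with an adjusted p from 0.0307 to 0.501 over its edgeR and DESeq2 alternatives. St8sia4 lay at 2.19 to 6.36 CPM and was uncalled in both genotypes.

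Cd24a, a small glycosylated surface protein of neuroblasts and ependymal cells, had 268, 290.0 and 241 CPM in the WT PRO libraries, 245, 139 and 141 CPM in WT DIFF, 301 and 291 CPM in p27KO PRO and 121 and 149 CPM in p27KO DIFF. In WT, DIFF replicate 1 lay within the range of PRO while replicates 2 and 3 lay below it, and in p27KO both DIFF libraries lay below both PRO libraries. Its log2 fold change was -0.62 in WT (SE 0.200, adjusted p = 0.0202 by edgeR with Benjamini-Hochberg) and -1.16 in p27KO (SE 0.247, adjusted p = 0.00306). The WT call was lost without WT DIFF replicate 2 (-0.49), WT DIFF replicate 3 (-0.48) or WT PRO replicate 2 (-0.56), with an adjusted p from 9.96e-05 to 0.0702 over its edgeR and DESeq2 alternatives. L1cam (ENSMUSG00000031391, chromosome X, 73853778 to 73896105), an adhesion molecule of axons that did not pass the filter, had 1, 2 and 6 counts in the WT PRO libraries, 193, 107 and 44 in WT DIFF, 7 and 5 in p27KO PRO and 71 and 148 in p27KO DIFF. In PRO it was at a few counts, and all DIFF libraries lay above all PRO libraries, at 9.82, 4.43 and 1.74 CPM in WT DIFF and 2.81 and 6.66 CPM in p27KO DIFF. With no filter on low counts, L1cam rose by 5.13 (SE 0.894, adjusted p = 0.00247 by edgeR with Benjamini-Hochberg; 0.000384 to 0.00247 over this and the other reading of the filter) in WT. In p27KO it rose by 4.02 (SE 0.996, adjusted p = 0.0187 by edgeR with Benjamini-Hochberg; 0.00418 to 0.0187 over this and the other reading of the filter). The size of these changes rests on the few counts in PRO, and L1cam is not in the counts of members UP.

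Among transcription factors, Insm1, a zinc-finger factor of neurogenic progenitors, had 2.87, 3.19 and 2.44 CPM in the WT PRO libraries, 3.21, 4.68 and 3.48 CPM in WT DIFF, 2.35 and 3.05 CPM in p27KO PRO and 4.76 and 4.50 CPM in p27KO DIFF. All DIFF libraries lay above all PRO libraries of their genotype, by a small margin in WT. It rose by 0.75 (SE 0.267, adjusted p = 0.0345 by edgeR with Benjamini-Hochberg) in p27KO and its value in WT was 0.41 (SE 0.218, adjusted p = 0.119), with an interaction of 0.34 (adjusted p = 1). The p27KO call was lost without p27KO DIFF replicate 1 (0.70), p27KO DIFF replicate 2 (0.80) or p27KO PRO replicate 1 (0.56) and without a filter (0.68), with an adjusted p from 0.0244 to 0.179 over its edgeR and DESeq2 alternatives. In WT its value was 0.21 without WT DIFF replicate 2. Myt1, a zinc-finger factor of neuronal and oligodendrocyte progenitors, had 10.6, 10.7 and 16.9 CPM in the WT PRO libraries, 36.6, 23.7 and 27.1 CPM in WT DIFF, 23.1 and 12.2 CPM in p27KO PRO and 20.7 and 34.4 CPM in p27KO DIFF. The stages were apart in WT and overlapped in p27KO. Myt1 rose by 1.18 (SE 0.301, adjusted p = 0.00658 by edgeR with Benjamini-Hochberg) in WT and its value in p27KO was 0.61 (SE 0.363, adjusted p = 0.176), with an interaction of -0.57 (adjusted p = 1). Its p27KO value ran from 0.21 without p27KO DIFF replicate 2 to 1.12 without p27KO PRO replicate 1.

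None of the 5 tested RNA-binding members was called by edgeR in either stage change as reported, without a replicate block, beside 67.4% of all tested genes called in either direction in WT and 57.7% in p27KO. In WT 1 of them, Elavl3, had an unadjusted p under 0.05 in edgeR and was called by DESeq2, and in p27KO there were 0 by either measure. The early genes Elavl2, Elavl3 and Elavl4 encode neuronal proteins that bind AU-rich RNA. Elavl2 lay at 17.1 to 29.3 CPM over the 10 libraries. Elavl3 lay at 7.86 to 24.1 CPM, with a WT change of 0.73 that passed the threshold under 6 alternatives, among them the replicate block within genotype (0.81), without WT DIFF replicate 3 (0.89) and without WT PRO replicate 1 (1.24), with an adjusted p from 0.000491 to 0.219 over its edgeR and DESeq2 alternatives. In p27KO its change of 0.76 passed under 4, among them with that block (0.76) and without WT PRO replicate 1 (0.76), with an adjusted p from 0.00466 to 0.316 over its edgeR and DESeq2 alternatives. Elavl4 had 5.16, 6.26 and 21.2 CPM in the WT PRO libraries, 1.83, 3.48 and 15.9 CPM in WT DIFF, 5.99 and 5.26 CPM in p27KO PRO and 2.42 and 2.97 CPM in p27KO DIFF. Both libraries of WT replicate 3 stood above all others, in PRO and in DIFF, while DIFF lay below PRO within each of the 3 WT numbers and in p27KO. Its change was -0.63 in WT and -1.09 in p27KO, uncalled. With the replicate block within genotype it was -0.87 in WT and -1.09 in p27KO, and both passed the threshold, as under 4 alternatives in each genotype, with adjusted p from 0.00567 to 0.862 in WT and from 0.0072 to 0.594 in p27KO over the edgeR and DESeq2 alternatives. The WT value was 0.30 without WT PRO replicate 3 and -2.02 without WT DIFF replicate 3, which leave the other library of that number unmatched.

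Celf4 and Rbfox3, mature regulators of neuronal RNA processing (Rbfox3 encodes the NeuN antigen), lay at 1.06 to 3.92 CPM and 1.53 to 4.99 CPM. The WT change of Celf4, 0.67, passed the threshold under 1 alternative, the block with the p27KO numbers crossed (0.63), with an adjusted p from 0.0411 to 0.607 over its edgeR and DESeq2 alternatives. Their relative Rbfox1 did not pass the filter, with 5, 5 and 9 counts in the WT PRO libraries, 8, 8 and 12 in WT DIFF, 9 and 9 in p27KO PRO and 11 and 8 in p27KO DIFF, a range in which the stages overlapped.

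The further mature genes were mostly at low levels, and those that were tested were uncalled in the stage changes. Nefm and Ina encode neurofilament subunits and lay at 4.78 to 9.22 CPM and 2.42 to 13.5 CPM; both were uncalled in edgeR as reported. The changes of Nefm, -0.49 in WT and -0.56 in p27KO, are close to the threshold. In WT it passed under 6 alternatives, among them DESeq2 (-0.49), the replicate block within genotype (-0.51) and without WT DIFF replicate 1 (-0.70), and in p27KO under 3, among them without WT DIFF replicate 1 (-0.53) or 3 (-0.56). Its adjusted p ran from 0.0059 to 0.172 in WT and from 0.0328 to 0.303 in p27KO over the edgeR and DESeq2 alternatives. Nefl, the light subunit, did not pass the filter and had 166, 183 and 131 counts in the WT PRO libraries, 12, 21 and 23 in WT DIFF, 218 and 90 in p27KO PRO and 16 and 16 in p27KO DIFF. All DIFF libraries lay below all PRO libraries, at 0.611, 0.870 and 0.909 CPM in WT DIFF beside 8.65, 7.30 and 6.04 CPM in WT PRO. With no filter, the log2 fold change of Nefl was -3.27 (SE 0.30, adjusted p = 3.23e-09 by edgeR with Benjamini-Hochberg; 3.23e-09 to 1.12e-05 over this and the other reading of the filter) in WT. In p27KO it was -3.39 (SE 0.373, adjusted p = 1.28e-07 by edgeR with Benjamini-Hochberg; 1.28e-07 to 6.83e-05 over this and the other reading of the filter). Neurofilament RNA was thus present in the cultures with mitogens. The count of 1 mature gene DOWN leaves Nefl out in both genotypes, since it did not pass the filter. Nefl and Nefm overlap on opposite strands, and whether the libraries were stranded is not given in the sources used here.

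Gad1 and Gad2 encode the enzymes that make GABA. Gad1 had 13.3, 19.7 and 8.35 CPM in the WT PRO libraries, 12.6, 23.3 and 5.38 CPM in WT DIFF, 9.13 and 15.3 CPM in p27KO PRO and 6.78 and 5.04 CPM in p27KO DIFF. WT replicate 2 was highest and WT replicate 3 lowest among WT libraries in PRO and in DIFF alike, and the stage change was -0.00350 in WT and -1.07 in p27KO, both uncalled (adjusted p = 0.995 and 0.188 by edgeR with Benjamini-Hochberg). The p27KO change passed the threshold under 4 alternatives, among them the replicate block within genotype (-1.03), with an adjusted p from 0.00428 to 0.533 over its edgeR and DESeq2 alternatives. Gad2 did not pass the filter and had 1, 1 and 3 counts in the WT PRO libraries, 56, 38 and 58 in WT DIFF, 5 and 3 in p27KO PRO and 18 and 33 in p27KO DIFF. PRO libraries held 1 to 5 counts and all DIFF libraries stood above them, at 2.85, 1.57 and 2.29 CPM in WT DIFF and 0.714 and 1.48 CPM in p27KO DIFF. With no filter, Gad2 rose by 4.69 (SE 0.566, adjusted p = 2.89e-07 by edgeR with Benjamini-Hochberg; 2.89e-07 to 2.72e-05 over this and the other reading of the filter) in WT and, in p27KO, by 2.49 (SE 0.622, adjusted p = 0.00313 by edgeR with Benjamini-Hochberg; 0.00313 to 0.004 over this and the other reading of the filter). Its interaction with no filter was -2.20 (SE 0.893, adjusted p = 1 by edgeR with Benjamini-Hochberg; 0.978 to 1 over this and the other reading of the filter) and is not called; unadjusted p was 0.0216. The count of 1 mature gene UP leaves Gad2 out, since it did not pass the filter.

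Of the 3 members for synaptic vesicle release, the calcium sensor Syt1 had 3.60, 3.87 and 24.9 CPM in the WT PRO libraries, 11, 4.60 and 10.7 CPM in WT DIFF, 4.46 and 9.74 CPM in p27KO PRO and 4.92 and 5.89 CPM in p27KO DIFF. As for Elavl4, the highest library was WT PRO replicate 3. Snap25, a membrane fusion protein, lay at 1.23 to 5.85 CPM, and Syn1, a vesicle phosphoprotein, at 17 to 31.9 CPM. edgeR called 0 of the 3 in either stage change, beside 67.4% of all tested genes in WT and 57.7% in p27KO; at an unadjusted p under 0.05 there were also 0 in WT and in p27KO, and DESeq2 called 0. The WT change of Syt1 was -0.32 and, without WT PRO replicate 3, 1.21 and past the threshold, with an adjusted p from 0.038 to 0.988 over its edgeR and DESeq2 alternatives. Snap25 passed it in WT without WT DIFF replicate 3 (1.10) and with the crossed block, in which the p27KO numbers are exchanged (0.77, 0.79 as reported). In p27KO it passed with the crossed block (0.83, 0.79 as reported), and Syn1 in p27KO with the replicate block within genotype (-0.39, -0.40 as reported).

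Comparisons between genotypes ask whether mutant Cdkn1b changes the genes at a stage or changes their stage response. None of the 32 members was called by edgeR in the interaction, beside 0.389% of all tested genes, and 1 had an unadjusted p under 0.05 (Map1b), beside 4.31% of all; DESeq2 also called 0, beside 1.22% of all tested genes. At DIFF, edgeR called 0 members, beside 2.04% of all tested genes, and 6 had an unadjusted p under 0.05, beside 14.8% of all; DESeq2 called 2 (Map1b and Map2), beside 4.91% of all tested genes. Those 6 were Ank3 (1.12), Map1b (1.02), Map2 (0.41), Mapt (-0.47), Rbfox3 (-0.99) and Ina (-1.30), log2 of p27KO over WT. At PRO, edgeR called 0 members, beside 0.0156% of all tested genes, and 3 had an unadjusted p under 0.05, beside 4.69% of all; DESeq2 called 0, beside 0.311% of all tested genes. Those 3 were Map2 (0.37), Gap43 (0.36) and Ina (-1.36). Median log2 differences (p27KO minus WT) at DIFF were -0.04 for early and -0.37 for mature genes, and at PRO 0.06 and -0.10. Leaving out a library moved them. At DIFF the early median ran from -0.082 without p27KO DIFF replicate 2 to 0.24 without p27KO DIFF replicate 1, and was 0.18 without WT DIFF replicate 1, 0.019 without WT DIFF replicate 2 and -0.012 without WT DIFF replicate 3. The mature median at DIFF ran from -0.55 without p27KO DIFF replicate 2 to -0.24 without WT DIFF replicate 1, which moves it by over 1.5 times in both cases. At PRO the early median ran from -0.046 without p27KO PRO replicate 1 to 0.12 without WT PRO replicate 1, and was 0.013 without WT PRO replicate 2 and 0.10 without p27KO PRO replicate 2. The mature median at PRO was 0.010 without WT PRO replicate 1, 0.018 without p27KO PRO replicate 1 and -0.069 without WT PRO replicate 2, so these medians, the mature one at DIFF apart, have no stable sign.

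Map1b was 1.02 higher in p27KO at DIFF (SE 0.236, adjusted p = 0.0746 by edgeR with Benjamini-Hochberg), with both p27KO libraries above all 3 WT libraries. It passed the threshold in DESeq2 (1.03) and without WT DIFF replicate 2 (1.24, the 1 member called then), with an adjusted p from 0.000853 to 0.401 over its edgeR and DESeq2 alternatives. Map2 had 1262, 1218 and 1466 CPM in the WT PRO libraries, 1391, 1537 and 1665 CPM in WT DIFF, 1836 and 1502 CPM in p27KO PRO and 1966 and 2067 CPM in p27KO DIFF. Both p27KO libraries exceeded all WT libraries at each stage, by 0.41 at DIFF (adjusted p = 0.152 by edgeR) and 0.37 at PRO (adjusted p = 0.888), not called. Ina had 12.5, 4.59 and 9.64 CPM in the WT PRO libraries, 13.5, 6.59 and 11 CPM in WT DIFF, 3.88 and 2.90 CPM in p27KO PRO and 2.42 and 5.94 CPM in p27KO DIFF, lower in both p27KO libraries than in all WT libraries at each stage. Its log2 differences were -1.30 at DIFF and -1.36 at PRO, uncalled in edgeR. Since genotype and sex cannot be told apart, neither can their parts in these values.

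Libraries of a group differed among themselves in ways that the groups do not explain. WT replicates of the same number appear to belong together, since deviations from the group mean correlated across genes between PRO and DIFF of the same number (r = 0.245, 0.288 and 0.388) and not between different numbers (-0.221 to -0.0833); genes are not independent replicates. Deviations cancel out within a group, so the values between different numbers are tied to those of the same number and add no separate evidence. For p27KO the same numbers gave -0.122 and the crossed numbers 0.122. With 2 libraries these are opposite by construction, and no pairing was taken. Dcx in the WT DIFF libraries had the order replicate 1, 3, 2, from high to low. Gpr17, a receptor of oligodendrocyte precursors, had 1.25, 0.319 and 3.37 CPM in the WT PRO libraries, 61.6, 4.39 and 23.5 CPM in WT DIFF, 5.66 and 0.443 CPM in p27KO PRO and 5.79 and 32.7 CPM in p27KO DIFF. Pdgfra, a growth factor receptor of the same cells, had 7.14, 11.6 and 24 CPM in the WT PRO libraries, 87.4, 40.6 and 46.6 CPM in WT DIFF, 23.3 and 5.46 CPM in p27KO PRO and 28.6 and 50.9 CPM in p27KO DIFF. Within WT DIFF, and within each p27KO group, both had the order of Dcx. In WT PRO, Gpr17 had the order of Dcx and Pdgfra did not. Each p27KO group has only 2 libraries, so a shared order there says little. Gpr17 and Pdgfra were picked after their values were seen. The other tested markers of those precursors did not have the order of Dcx in WT DIFF and p27KO PRO. There Olig2 had 277, 231 and 289 CPM in WT DIFF and 668 and 782 CPM in p27KO PRO, and Cspg4 had 43.8, 26.6 and 25.1 CPM and 95 and 122 CPM. In p27KO DIFF both had the order of Dcx, at 224 and 232 CPM for Olig2 and 27 and 29.7 CPM for Cspg4. A relation between these genes and Dcx was not tested. Several members had other library patterns. Among them were St8sia2, Nrcam, Map1b and Gad1, highest within WT DIFF in replicate 2, and Dpysl3, highest there in replicate 3. Elavl4 was highest in replicate 3 of both WT stages.

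Of 26 factors that drive neurogenesis, 11 were tested, of which 6 were UP and 2 DOWN in WT and 5 UP and 3 DOWN in p27KO. All tested genes, against which these counts and those of the lists that follow are to be read, were 33.5% UP and 33.9% DOWN in WT and 27.5% and 30.2% in p27KO. The factors' summed level was 1252, 1192 and 1197 CPM in the WT PRO libraries, 1738, 1699 and 1841 CPM in WT DIFF, 1175 and 1226 CPM in p27KO PRO and 1658 and 1786 CPM in p27KO DIFF, with Sox4 or Sox11 most abundant. Here and in the lists that follow, most abundant means by CPM, with no account of gene length. Among those UP in WT were Sox4 (378 ± 32.9 CPM in PRO and 942 ± 49.5 in DIFF, mean ± SD, n = 3), Btg2 (78.6 ± 11.3 and 151 ± 22.5) and Pax6 (35.5 ± 1.66 and 66.3 ± 2.53). The DOWN genes were Etv1 (146 ± 26.1 and 87.1 ± 18.5 CPM) and Sox11 (405 ± 16.2 and 243 ± 10.01 CPM). Neurod6, Sp8, Nhlh2 and Isl1 had 0 counts in all 10 libraries, and Dlx5, a factor of olfactory bulb neuroblasts, had 0 in 9.

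Among 6 repressors of neuronal genes, all tested, 1 was UP and 3 DOWN in WT, and 1 was UP and 2 DOWN in p27KO. Hes5 was UP in WT (9.0 ± 1.52 CPM in PRO and 66.7 ± 12.1 in DIFF, mean ± SD, n = 3). The DOWN genes were Hes1 (33.8 ± 1.68 and 8.43 ± 2.14 CPM), Ptbp1 (252 ± 10.5 and 85 ± 4.15), a splicing repressor, and Rcor1 (55.5 ± 4.29 and 41.6 ± 2.61). Rest, which silences neuronal genes outside neurons, was uncalled at 58.7 ± 2.57 CPM in PRO and 65.8 ± 6.66 in DIFF.

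Of 32 relatives of members, 29 were tested, of which 10 were UP and 9 DOWN in WT and 8 UP and 9 DOWN in p27KO. The largest rises in WT were of Dpysl4 (22.4 ± 6.47 CPM in PRO and 121 ± 39.3 in DIFF, mean ± SD, n = 3), Nfasc (14.5 ± 1.89 and 55.7 ± 13.4), Celf3 (1.61 ± 0.609 and 5.53 ± 3.39) and Syn2 (67.6 ± 9.02 and 187 ± 33). The largest falls were all of beta-tubulins: Tubb6 (79.6 ± 21.7 and 9.50 ± 0.669 CPM), Tubb5 (1010.0 ± 84.9 and 166 ± 29.6), Tubb2a and Tubb4b (201 ± 25.7 and 64.7 ± 3.38). Tubb3 was thus UP in WT beside falls of Tubb2b and of these 4 relatives. At DIFF, 1 of the 29 relatives was called between genotypes (3.45%), near the 2.04% of all tested genes. It was Tubb4b, with 115 and 104 CPM in p27KO and 60.8, 67.1 and 66 in WT, named after its values were seen.

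Of 22 further synaptic and mature neuron genes, 12 were tested, of which 6 were UP and 2 DOWN in WT and 3 UP and 2 DOWN in p27KO. Their median log2 fold change was 0.59 in WT and 0.19 in p27KO, beside 0.13 and -0.25 for the 12 tested mature members. UP in WT with the largest change were Bsn (6.95 ± 0.181 CPM in PRO and 26.6 ± 9.16 in DIFF, mean ± SD, n = 3), Gria1 (2.20 ± 1.07 and 7.09 ± 4.53), Scn2a (9.91 ± 1.94 and 26 ± 0.788) and Eno2 (3.31 ± 0.269 and 6.52 ± 2.61). Grin1 (3.71 ± 1.28 and 1.31 ± 0.314 CPM) and Dlg4 (96.8 ± 15.1 and 74.3 ± 8.37) were DOWN. Slc17a6, the glutamate transporter of excitatory neurons, and Th, the enzyme of dopaminergic neurons, had 0 counts in all 10 libraries, and Slc32a1, the vesicular GABA transporter, had 0 in 9.

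Markers of other cell types moved with the stage as well, and their part in the members' changes was not tested. Of 8 stem and progenitor markers, 3 were UP and 2 DOWN in WT, and 4 UP and 2 DOWN in p27KO. Their sum was 7394, 8412 and 7953 CPM in the WT PRO libraries, 7249.8, 7902 and 8909 CPM in WT DIFF, 7746 and 7218 CPM in p27KO PRO and 8626 and 8476 CPM in p27KO DIFF, with Vim, Fabp7 or Slc1a3 most abundant. Nes (1732 ± 254 CPM in PRO and 195 ± 40.9 in DIFF, mean ± SD, n = 3) was DOWN in WT. So was Vim (2657 ± 155 and 1759 ± 70.9 CPM). Slc1a3 (768 ± 102 and 2386 ± 249 CPM), Prom1 (7.87 ± 1.17 and 22.3 ± 5.37) and Sox2 (205 ± 30.8 and 370 ± 5.10) were UP in WT. Of 7 astrocyte markers, all tested, 5 were UP in each genotype. Their sum was 1073, 977 and 866 CPM in the WT PRO libraries, 3223, 3198 and 2692 CPM in WT DIFF, 1232 and 987 CPM in p27KO PRO and 3162 and 3075 CPM in p27KO DIFF, with Aldoc most abundant in 8 libraries and Slc1a2 in 2. Gfap (0.613 ± 0.408 and 111 ± 31.1 CPM) and Aqp4 (2.78 ± 1.74 and 238 ± 69.99 CPM) were UP in WT.

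Of 5 oligodendrocyte progenitor markers 4 were tested; 2 were UP (Gpr17 and Pdgfra) and 2 DOWN (Olig2 and Cspg4) in WT, and 2 were DOWN in p27KO. Their sum was 859, 979 and 811 CPM in the WT PRO libraries, 470.2, 303 and 385 CPM in WT DIFF, 792 and 911 CPM in p27KO PRO and 286 and 345 CPM in p27KO DIFF, with Olig2 most abundant in all 10. Sox10, a defining marker, did not exceed 0.509 CPM. Of 6 oligodendrocyte markers 3 were tested. Their sum was 81.3, 86.1 and 79.7 CPM in the WT PRO libraries, 156, 103 and 111 CPM in WT DIFF, 93.2 and 68.1 CPM in p27KO PRO and 84.4 and 94.8 CPM in p27KO DIFF, with Cnp most abundant and Mag at 0 in 6 libraries. Ependymal markers (5, of which 1 tested, Foxj1, UP in WT) summed to 20.2, 17 and 14.7 CPM in the WT PRO libraries, 104, 87 and 87.3 CPM in WT DIFF, 15.5 and 18.6 CPM in p27KO PRO and 86.2 and 92.5 CPM in p27KO DIFF, with Tmem212 at 0 in 9. Endothelial and mural markers (5, of which 1 tested, Kdr, UP in WT) did not exceed 20.6 CPM in sum, and Cldn5 had 0 counts in all 10. The sum of 6 microglial markers, 0 of which passed the filter, did not exceed 0.622 CPM, and Cx3cr1 had 0 counts in 9.

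Promoter windows of 300 bases (250 before to 50 after an annotated start) from RefSeq, build GRCm38.p6, were matched for 25 of the 39 members, in 46 windows. The windows were searched on both strands for letters that regulators of neuronal genes bind. The letters ACAAAG, which SOX factors such as Sox4 and Sox11 can bind and which read CTTTGT on the other strand, were in 18.7% of all 32851 windows and in a window of 21.02% of 27025 genes. They were in a window of 10 of the 25 members, among them 5 of the 9 with a window that were UP in WT (Dcx, Dpysl5, Myt1, Nrxn3 and Stmn3) and 5 of the 16 others. Members have 1.84 windows per gene beside 1.22 for all genes, so shares by gene are not alike. By window, ACAAAG was in 12 of the 46 member windows (26.1%), among them 6 of the 14 windows of members UP in WT. CAGCTG, which reads the same on both strands and is an E-box of proneural factors, was in 16.3% of windows and in a window of 18.3% of genes, and in a window of 8 of the 25 members and of 0 of the 9, or 11 of the 46 member windows (23.9%). TTCAGCACC (GGTGCTGAA), part of the element that Rest binds, was in 0.371% of windows and in a window of 0.433% of genes, and in 1 member, Syn1. None of the 3 motifs contains another. A match is a description, not a site or a cause. Windows of Dcx (chrX:143933075-143933374, minus strand), Dpysl5 (chr5:30711314-30711613, plus strand) and Nrxn3 (chr12:88794254-88794553, plus strand, at a start inside the gene) are shown as members UP in both genotypes, and that of Syn1 (chrX:20920869-20921168, minus strand) for the Rest letters, each chosen after its values were seen, with the match in capitals. Counted from 1 at the first base, the match starts at position 243 in Dcx, 236 in Dpysl5, 184 in Nrxn3 and 19 in Syn1.
Dcx: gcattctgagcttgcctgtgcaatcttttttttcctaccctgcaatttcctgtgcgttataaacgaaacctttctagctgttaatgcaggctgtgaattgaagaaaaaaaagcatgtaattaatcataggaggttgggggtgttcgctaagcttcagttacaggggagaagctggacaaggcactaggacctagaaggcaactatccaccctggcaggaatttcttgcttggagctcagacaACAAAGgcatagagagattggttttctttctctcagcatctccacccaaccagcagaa
Dpysl5: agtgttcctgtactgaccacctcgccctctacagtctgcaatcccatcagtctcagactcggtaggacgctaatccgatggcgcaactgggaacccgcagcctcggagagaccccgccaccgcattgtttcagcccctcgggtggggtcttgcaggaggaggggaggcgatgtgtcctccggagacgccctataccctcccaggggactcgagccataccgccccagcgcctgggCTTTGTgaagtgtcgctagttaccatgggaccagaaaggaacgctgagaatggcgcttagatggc
Nrxn3: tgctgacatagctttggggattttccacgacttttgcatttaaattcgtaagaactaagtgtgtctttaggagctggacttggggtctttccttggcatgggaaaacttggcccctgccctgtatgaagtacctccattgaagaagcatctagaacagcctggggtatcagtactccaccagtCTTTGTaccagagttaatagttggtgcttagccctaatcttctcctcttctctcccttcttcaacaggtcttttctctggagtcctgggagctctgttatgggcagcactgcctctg
Syn1: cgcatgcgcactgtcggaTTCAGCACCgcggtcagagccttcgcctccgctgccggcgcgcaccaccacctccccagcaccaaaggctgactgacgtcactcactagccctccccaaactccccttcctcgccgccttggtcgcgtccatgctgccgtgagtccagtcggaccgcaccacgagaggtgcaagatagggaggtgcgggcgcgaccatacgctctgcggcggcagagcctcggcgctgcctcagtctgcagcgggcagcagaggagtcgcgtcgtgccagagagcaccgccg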

How the data were processed

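The deposited table holds estimated counts per gene, which the authors made with RSEM after STAR alignment to Ensembl transcripts of the mouse (GRCm38); FastQC, Trimmomatic, cutadapt and DESeq2 are also named, and their versions, the annotation release and the strand setting are not given in the sources used here. Expected counts were taken as whole numbers.

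Genes under 1 CPM in at least 4 of 10 libraries were discarded, which left 12859, and 14070 pass if genes need 1 CPM in at least 4. Counts were scaled by TMM and tested two-sided with the quasi-likelihood test of edgeR 4.0.16 (robust, 4 group means over all 10 libraries, R 4.3.3), adjusted by Benjamini-Hochberg over all genes. Tables and plots used Python 3.11.15, pandas 2.3.3 and matplotlib 3.10.9. The procedure was tested on simulated data. These had a far smaller share of changed genes than the stage changes here, the same spread for every gene and no replicate effect. They therefore do not test the scaling or the unpaired fit under the conditions of these data. Replicates were checked for copies and for pairing by number. Exon lengths and overlaps come from GENCODE M21, promoters from RefSeq. Overlapping exons make counts uncertain for Nefl and Nefm, Ina and Nt5c2, Syn1 and Araf, L1cam and Arhgap4, Elavl3, Myt1l, Map2, Ncam1 and Nrxn3.

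All 39 members are named, with levels per library for those called in any comparison and ranges for the others; of other lists, up to 4 called genes per direction with the largest change in WT are named, and some genes of these lists are not reported here. The members and lists were chosen with earlier results of these data known. The 20 alternatives were DESeq2 1.42.0, its size factors, library totals, the other filter reading, no filter, an added limit of 1 on the absolute log2 fold change, the compared groups alone, a replicate block (across all libraries, within genotype, or with p27KO numbers crossed) and leaving out each library.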

Additional observations from a re-analysis of the deposited data

How the results depend on the processing

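Over 20 alternatives the members UP in WT numbered 7 to 14 (11 as reported), and leaving out a library gave 10 to 13. Requiring an absolute log2 fold change of at least 1 gave 7 UP and 2 DOWN in WT (11 and 5 as reported), and 3 DOWN in p27KO (5 as reported). All tested genes past that limit were 14.3% UP and 12.6% DOWN in WT, and 11.99% DOWN in p27KO. DOWN in WT ranged from 4 to 6 and DOWN in p27KO from 3 to 6 on leaving out a library, with 3 without p27KO PRO replicate 2. UP in p27KO ranged from 7 to 10 on leaving out a library (9 as reported).

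With a replicate block across libraries, 12 members were UP and 6 DOWN in WT, and 10 UP and 7 DOWN in p27KO. With the block within genotype they were 12 UP and 7 DOWN in WT, and 10 UP and 8 DOWN in p27KO. With the p27KO numbers crossed they were 14 UP and 7 DOWN in WT, and 12 UP and 8 DOWN in p27KO. The further members DOWN in WT with the block within genotype were Elavl4 and Nefm; the genotype comparisons at a stage cannot be fitted with such a block, nor the interaction on the compared groups alone. The cause was not tested.

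Members called between genotypes at DIFF (0 in edgeR, with 6 at an unadjusted p under 0.05) numbered 2 in DESeq2, and 0 to 1 on leaving out a library, with 1 without WT DIFF replicate 2. The interaction and the PRO comparison gave 0 members in edgeR and in DESeq2 under all alternatives run, with 1 and 3 at an unadjusted p under 0.05 in edgeR.

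Of the stage changes of the 18 members called in either genotype, 651 values kept direction and side of the threshold, 9 passed it, 23 no longer did and 1 reversed: Stmn3 in p27KO was -0.068 without p27KO PRO replicate 2, the lowest on leaving out a library, and 0.71 without p27KO PRO replicate 1, the highest (0.26 as reported). Myt1 in p27KO passed the threshold with the crossed block (0.64), and St8sia2 in p27KO with the block across libraries (1.11). The causes were not tested.

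Counts over all genes moved too. Called in the interaction were 50, with 157 in DESeq2, 79 without a filter and 29 with the block within genotype; leaving out a library gave 0 to 88, with 0 without WT PRO replicate 2 or 3 or any p27KO library, 13 without WT PRO replicate 1, 82 without WT DIFF replicate 2 and 88 without WT DIFF replicate 1. At DIFF they were 262, with 631 in DESeq2, 39 on the compared groups alone, 99 without p27KO DIFF replicate 1 and 126 without p27KO DIFF replicate 2. At PRO they were 2, with 40 in DESeq2, 9 with the other filter reading, 14 without a filter and 1 to 4 on leaving out a library.

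Each p27KO group has 2 libraries, and leaving out 1 leaves a lone library that is assumed to vary like the other groups. Genotype and sex cannot be told apart, and PRO and DIFF differ in several culture conditions at once. Depth limits Myt1l, Stmn2, Rbfox1 and the PRO levels of L1cam, Gad2 and Dcx, where a few counts set the level. Bulk RNA does not say which cells carry the RNA. Counts of members with overlapping exons or near-identical relatives depend on how reads were assigned, which was not analysed here.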
